A study of Mus musculus with 6 samples.

Results

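The Sall genes are the 4 mouse members of the Spalt-like family, *Sall1*, *Sall2*, *Sall3* and *Sall4*. They were taken from 22380 gene entries by mapping the Ensembl identifiers to mouse symbols, and all 4 were listed and passed the filter on low values that left 10524 genes. The family was selected on the normalized counts of *Sall2* in this same contrast, which lay far higher in the *Tet*-deleted cells, so the values of *Sall2* in this contrast are given as a description without a test. The other 3 members came with it by name.

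The values are bulk RNA-seq normalized counts from 6 libraries of mouse embryonic stem cells (mESC), 3 *Ctrl* and 3 *Tet iTKO*, each from a line derived from a different embryo. Both groups carried CreERT2 wt/ki, a tamoxifen-inducible Cre driven by the human ubiquitin C promoter, together with the Gt(ROSA)26Sor<tm1Ytchn>/J wt/ki allele, which expresses an H2B-EGFP fusion once Cre has acted. *Tet iTKO* cells carried in addition floxed alleles of *Tet1*, *Tet2* and *Tet3*, the genes for the dioxygenases that oxidize 5-methylcytosine. All cells of both groups grew in 2i medium (CHIR99021 and PD0325901) on embryonic fibroblast feeders, received 1 µM tamoxifen for 2.5 days, were cultured for 4 more days and were sorted at day 6.5 as live CD326+ GFP+ Thy1.2- cells, a gate meant to leave feeders out. The design thus asks how RNA levels differ shortly after the 3 *Tet* genes are lost, with Cre and tamoxifen in both arms. The groups also differ in lines and in the mouse stock they came from, and no library is of untreated floxed cells. These differences cannot be told apart from the loss of the *Tet* genes.

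SALL proteins are nuclear factors with paired C2H2 zinc fingers and a short amino-terminal motif that recruits the NuRD histone deacetylase and chromatin remodelling complex, and they act mostly as repressors. SALL4 is part of the transcription network of embryonic stem cells and SALL1 is its close partner there, SALL2 is best known from neural tissue, the eye and growth arrest, and SALL3 from neural, limb and cranial development. Loss of function of *SALL1* and *SALL4* causes the Townes-Brocks and Duane-radial ray syndromes in humans, and human SALL4 is degraded through cereblon when thalidomide is present.

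The 4 genes lie on different chromosomes, all on the minus strand in GRCm38. *Sall1* occupies chr8:89027235-89044162, *Sall2* chr14:52311172-52328762 and *Sall4* chr2:168748332-168767943. Their merged exons span 5.26 kb, 5.43 kb, 7.48 kb and 5.54 kb in the order *Sall1* to *Sall4*, and the GC content of their longest annotated transcript is between 51.6% and 54.4%. GENCODE lists 1 transcript for *Sall1*, 2 for *Sall2*, 2 for *Sall3* and 7 for *Sall4*. The antisense gene *Gm14261* overlaps *Sall4*, and because the library chemistry does not mark strand, reads of the pair cannot be told apart.

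*Sall2*, the member on which the choice of the family rests, has a pair of annotated starts 12.3 kb apart, and a value per gene does not tell which one was used. The RefSeq promoter table (GRCm38.p6) held windows for 2 of the 4 members, *Sall1* and *Sall2*. They are shown because the study removes enzymes that act on methylated cytosine and these stretches differ in how many CpG dinucleotides they hold. Methylation was not analysed here. Each is printed 5′ to 3′ on the minus strand, in lower case with every CpG in capitals. It ends just before the start named on its line, as placed furthest out by GENCODE or RefSeq:
Sall2 upstream start, chr14:52328763-52328920: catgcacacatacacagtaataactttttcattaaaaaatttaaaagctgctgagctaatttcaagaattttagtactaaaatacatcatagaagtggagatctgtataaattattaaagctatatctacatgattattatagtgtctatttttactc
Sall2 downstream start, chr14:52316324-52316573: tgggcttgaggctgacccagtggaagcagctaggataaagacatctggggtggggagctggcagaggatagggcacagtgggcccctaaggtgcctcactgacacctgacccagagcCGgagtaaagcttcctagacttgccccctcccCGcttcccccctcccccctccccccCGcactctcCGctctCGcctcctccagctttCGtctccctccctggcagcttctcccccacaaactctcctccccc
Sall1 outermost start, chr8:89044163-89044412: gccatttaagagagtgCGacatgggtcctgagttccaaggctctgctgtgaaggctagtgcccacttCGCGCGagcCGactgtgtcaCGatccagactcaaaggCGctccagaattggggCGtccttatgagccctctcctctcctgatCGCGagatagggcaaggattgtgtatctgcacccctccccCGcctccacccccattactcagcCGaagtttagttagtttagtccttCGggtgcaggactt
The upstream *Sall2* window is shown over 158 bases, since GENCODE places that start further out than RefSeq does. Over the full 250 bases before its RefSeq start it held 0 CpG at a GC content of 28.0%, and 7.87% of the 32851 windows of that length held none. The downstream *Sall2* start had 6 CpG in its 250 bases, equal to the median window, at 64.4% GC against a median of 52.4%. RefSeq lists 3 *Sall1* starts, and the outermost, shown because it is also the GENCODE start, had 13 CpG at 56.4% GC, with as few or fewer in 70.6% of windows. The other two *Sall1* windows held 25 CpG at 74.4% GC and 30 CpG at 78.4% GC, with as few or fewer in 90.4% and 94.8% of windows.

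*Sall2* had normalized counts of 17, 35 and 25 in the *Ctrl* libraries and of 174, 186 and 164 in the *Tet iTKO* libraries. All 3 *Tet iTKO* values were above all 3 *Ctrl* values, by a wide margin. The means were 25.7 ± 9.02 in *Ctrl* and 175 ± 11.0 in *Tet iTKO* (SD, n = 3 each), a ratio of 6.81 and a difference of 2.77 with a standard error of 0.24 on the log2(value + 1) scale. By this difference *Sall2* stood at rank 48 from the top among the 10524 genes tested, and at rank 2 of the 7819 genes with a mean of at least 50. Both ranks rest on the contrast used to pick the family. With a *Ctrl* mean of 25.7, *Sall2* passed the filter of 50 only through *Tet iTKO*. The *Ctrl* SD was larger than the 5.07 that counting alone would give if the scaled values were raw counts. The *Tet iTKO* SD was below the corresponding 13.2. The difference lay between 2.52 and 3.02 when any 1 library was left out.

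*Sall3*, on chromosome 18, had counts of 33, 56 and 60 in *Ctrl* and of 115, 110 and 121 in *Tet iTKO*. The groups did not overlap, and *Ctrl* replicate 1 was the lowest library. *Sall3* rose 2.32-fold, from a mean of 49.7 ± 14.6 to 115 ± 5.51 (SD, n = 3 each), with a log2 difference of 1.24, a standard error of 0.23 and an adjusted p of 3.8e-05 by limma over all genes tested. Without *Ctrl* replicate 1 the difference was 0.98, the smallest value with 1 library left out, and the adjusted p stayed at or below 0.0012 without any one library.

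*Sall4*, the most abundant member, had counts of 1712, 1518 and 1763 in *Ctrl* and of 2027, 1871 and 1951 in *Tet iTKO*. The lowest *Tet iTKO* library was above the highest *Ctrl* library. The means were 1664 ± 129 and 1950 ± 78.0 (SD, n = 3 each), a ratio of 1.17 and a log2 difference of 0.23 with a standard error of 0.06 (limma, adjusted p = 0.0023). This call depended on the processing. After a loess correction of each library for transcript GC content and length the difference was -0.11 (limma, adjusted p = 0.17), and with a fit less sensitive to outlying genes it was -0.01 (limma, adjusted p = 0.93). With a variance prior that did not follow expression level, the adjusted p of *Sall4* from limma was 0.13.

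*Sall1* had counts of 248, 245 and 259 in *Ctrl* and of 313, 240 and 249 in *Tet iTKO*. The groups overlapped, and *Tet iTKO* replicate 1 alone was above the *Ctrl* range. The means were 251 ± 7.37 and 267 ± 39.8 (SD, n = 3 each), with a log2 difference of 0.08 and a standard error of 0.12 (limma, adjusted p = 0.62). Without *Tet iTKO* replicate 1 the difference was -0.04, and after the correction for GC content and length it was -0.18 (limma, adjusted p = 0.26).

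**Figure D1:**
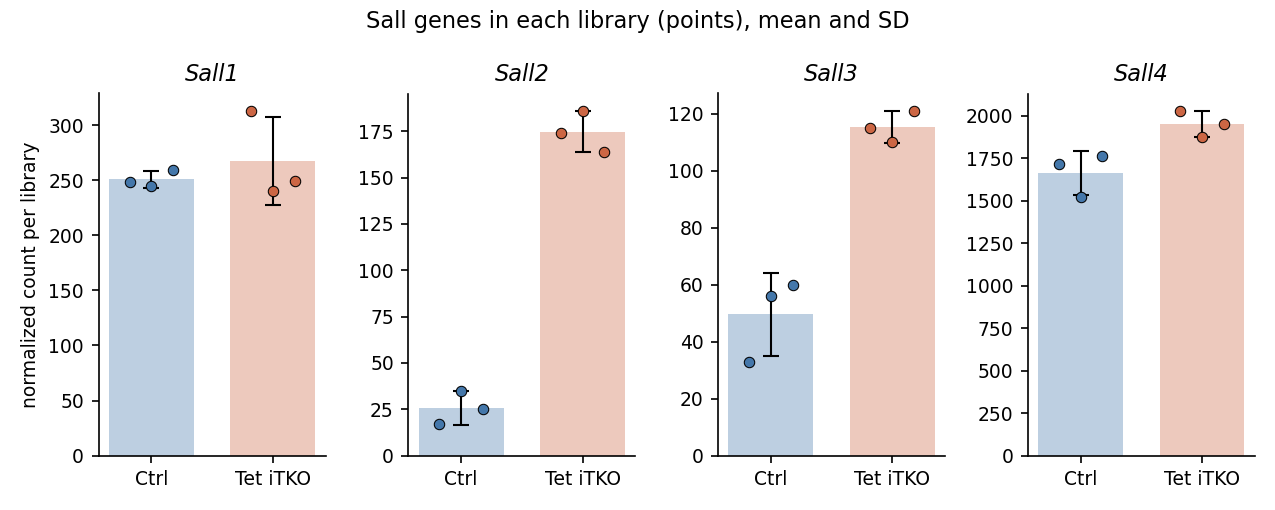
Normalized count (y axis, starting at 0, a separate scale for each gene) of each *Sall* gene in *Ctrl* (blue) and *Tet iTKO* (orange) mESC. Points are single libraries, bars are means and lines are the SD over 3 libraries. For *Sall2* the *Ctrl* points lie between 17 and 35 and the *Tet iTKO* points between 164 and 186, whereas the groups of *Sall1* overlap.

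Of the 3 members other than *Sall2*, 2 were called higher in *Tet iTKO* at an adjusted p under 0.05 (limma with Benjamini-Hochberg adjustment over all genes) and 0 lower. Over all genes 34.8% were called, 16.4% higher and 18.4% lower. With a log2 difference of at least 1 as well, which 4.95% of genes passed upward and 1.30% downward, *Sall3* was called and *Sall4* was not. Counting *Sall2*, the libraries did not overlap and were higher in *Tet iTKO* for 3 of the 4 members, against 21.2% of all genes tested (22.9% lower without overlap), and part of this count was fixed by the choice of the family. After the planned correction for GC content and length, 1018 genes were higher and 2077 lower, against 1731 and 1934 without it. *Sall3* kept its call under that correction, with a log2 difference of 0.76 (limma, adjusted p = 0.0083), and the *Sall2* difference was 2.46.

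**Figure D2:**
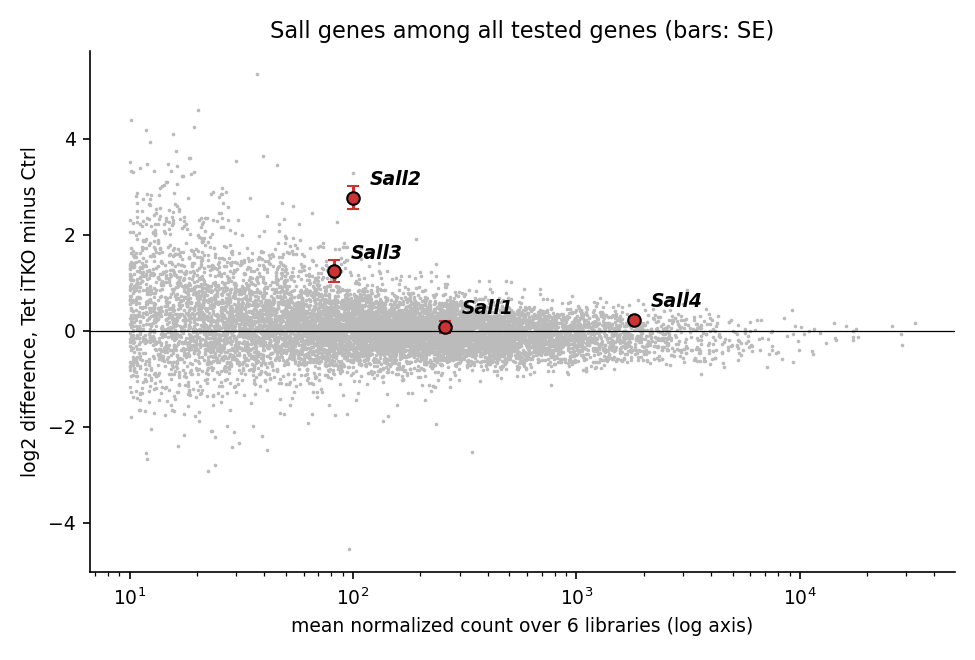
Log2 difference, *Tet iTKO* minus *Ctrl* (y axis), against the mean normalized count over the 6 libraries (x axis, log scale) for the genes tested (grey). The 4 *Sall* genes are in red with their standard errors. *Sall2* at 2.77 stands above nearly all genes of similar level, *Sall3* is at 1.24, and *Sall1* at 0.08 and *Sall4* at 0.23 lie within the body of the cloud.

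**Figure D3:**
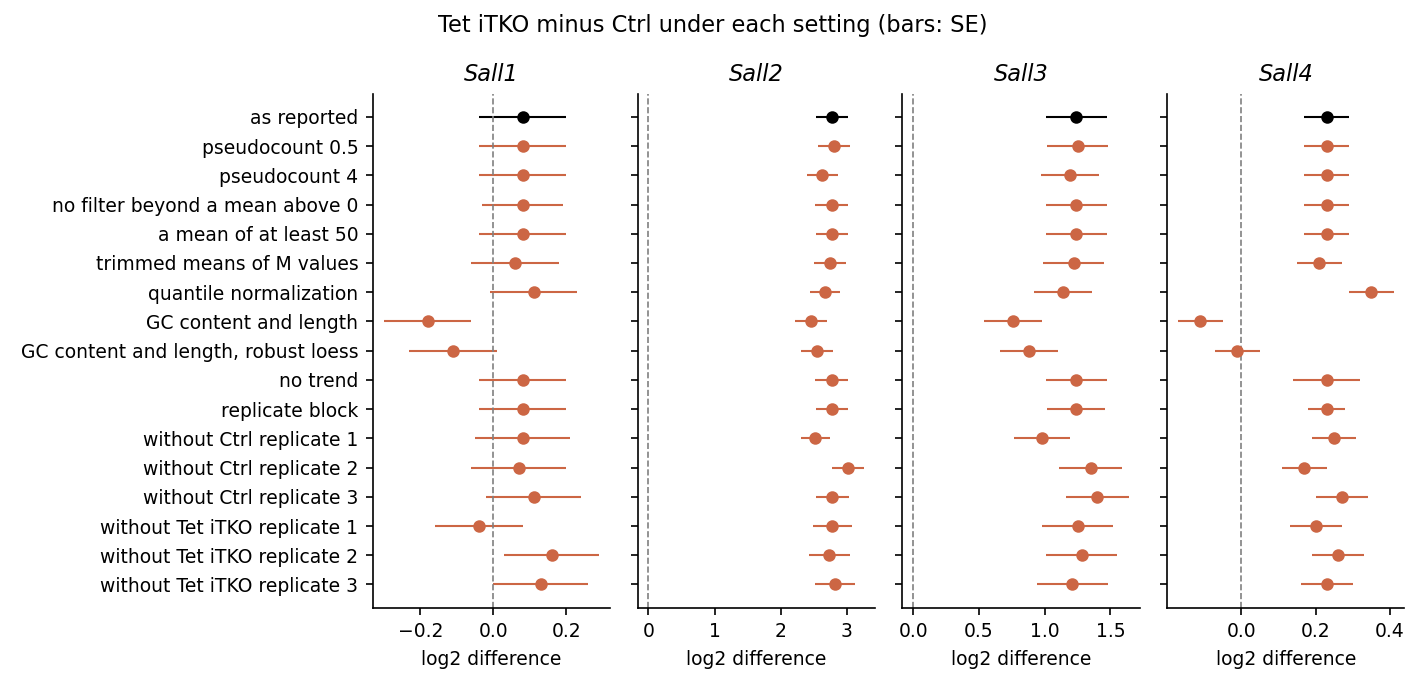
Log2 difference, *Tet iTKO* minus *Ctrl* (x axis, own range for each gene), of each *Sall* gene under each processing setting (rows), with the value as reported in black and bars for the standard error. *Sall2* and *Sall3* stay above 0 in every row, and *Sall1* and *Sall4* go to -0.18 and -0.11 after the correction for GC content and length.

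To compare levels between the members, normalized counts were divided by the merged exon length in kb. In *Ctrl* the order of these levels was *Sall4* at 301 ± 23.4 per kb, *Sall1* at 47.6 ± 1.40, *Sall3* at 6.64 ± 1.95 and *Sall2* at 4.72 ± 1.66 (SD, n = 3). The ranges of the last pair overlapped, 4.41 to 8.02 for *Sall3* and 3.13 to 6.44 for *Sall2*, while each of the other steps was wider than the spread between libraries. In *Tet iTKO* the order was *Sall4* at 352 ± 14.1 per kb, *Sall1* at 50.8 ± 7.56, *Sall2* at 32.1 ± 2.03 and *Sall3* at 15.4 ± 0.736 (SD, n = 3), and no neighbouring ranges overlapped. *Sall2* thus stood last in *Ctrl* and above *Sall3* in *Tet iTKO*.

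Against all genes tested, the level per kb of *Sall2* was at percentile 14.1 in *Ctrl* and 51.4 in *Tet iTKO*. *Sall3* went from percentile 19.5 to 33.8, *Sall1* from 60.6 to 62.3 and *Sall4* from 91.1 to 93.3. The summed level of the family was 360 ± 23.1 per kb in *Ctrl* and 451 ± 20.6 in *Tet iTKO* (SD, n = 3). Part of the rise in this sum was fixed by the choice of the family on *Sall2*. Another part is that of *Sall4*, which was lost after the correction for GC content and length. *Sall4* made up 83.6% of this sum in *Ctrl* and 78.2% in *Tet iTKO*, and *Sall1* 13.3% and 11.2%. The share of *Sall2* was 1.33% in *Ctrl* and 7.15% in *Tet iTKO*, and that of *Sall3* 1.85% and 3.43%. Shares of a sum are tied to one another, so the lower shares of *Sall4* and *Sall1* do not mean lower levels of these genes. These shares are of RNA, and bulk values cannot tell more RNA per cell from more cells that express a gene.

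The balance of the pair best known from embryonic stem cells was compared as a log2 ratio of *Sall1* to *Sall4* in normalized counts. It was -2.78, -2.63 and -2.76 in *Ctrl* and -2.69, -2.96 and -2.96 in *Tet iTKO*. *Tet iTKO* replicate 1 fell inside the *Ctrl* range and the other two below it. The difference of the means was -0.15, with a two-sided p of 0.30 by an exact permutation test that cannot go below 0.10 with 3 against 3.

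The counts of called genes in the lists of related genes stand beside 16.4% of all genes higher and 18.4% lower, or 34.8% in all. Without the variance trend the calls in these lists numbered 25 in place of 54.

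NuRD is the complex that SALL proteins bring to DNA. Of its 15 listed subunit genes 14 were tested, 3 were higher in *Tet iTKO*, 2 lower and 9 not called, with a median log2 difference of 0.08 against 0.01 over all genes. The share called, 35.7%, was near the 34.8% of all genes, and the split was 2 higher to 4 lower once GC content and length were corrected for and 5 higher to 1 lower after quantile normalization. *Chd3*, a remodelling ATPase of low abundance here, had counts of 15, 34 and 25 in *Ctrl* and of 60, 91 and 78 in *Tet iTKO*, and rose by a log2 difference of 1.64 (SE 0.31, limma, adjusted p = 5.2e-05). The far more abundant ATPase *Chd4* rose 1.25-fold (limma, adjusted p = 0.00053), but its log2 difference of 0.32 became -0.08 after the correction for GC content and length. *Rbbp4*, a histone chaperone subunit, fell to 0.756 of its *Ctrl* level and kept its call under every alternative tried. *Hdac1*, a deacetylase, fell to 0.855 of its *Ctrl* level, but its log2 difference of -0.22 was -0.11 after quantile normalization (limma, adjusted p = 0.11) and -0.08 after the robust form of the correction for GC content and length (limma, adjusted p = 0.30).

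Of the 5 listed mouse genes for the ligase that removes human SALL4 in the presence of thalidomide, 1 rose and 2 fell (60% called, against 34.8% of all genes). Their median log2 difference was 0.15. Whether the mouse ligase acts on SALL4 was not tested. *Crbn*, the substrate receptor, had counts of 108, 105 and 99 in *Ctrl* and of 62, 56 and 59 in *Tet iTKO* (limma, adjusted p = 0.0019). *Rbx1*, the RING subunit, fell to 0.516 of its *Ctrl* level. The adaptor *Ddb1* rose 1.17-fold, and its difference was 0.0 after the correction for GC content and length.

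Among 7 genes that have been reported as SALL2 targets, 6 were tested, with 2 higher, 1 lower and a median of 0.06. That is 50% called against 34.8% of all genes, and after the correction for GC content and length 1 was higher and 2 lower. *Pmaip1*, which encodes the pro-apoptotic protein NOXA, had counts of 246, 292 and 233 in *Ctrl* and of 402, 354 and 366 in *Tet iTKO*, a log2 difference of 0.54 (SE 0.11, limma, adjusted p = 0.00013). The cell-cycle inhibitor *Cdkn1a* rose 1.22-fold, a call lost after that correction, with a log2 difference of 0.20 (limma, adjusted p = 0.085). The pro-apoptotic *Bax* fell to 0.837 of its *Ctrl* level. *Ccne1*, the gene for cyclin E1, had means of 1639 and 1635, and *Myc* and *Ccnd1* were not called. *Cdkn2a* was at or near 0 in all libraries.

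Of 11 genes reported as SALL4 targets, a list that includes *Sall1* and *Sall3*, 9 were tested, with 3 higher, 1 lower and a median of 0.09. That is 44.4% called against 34.8% of all genes, and 1 was higher after the correction for GC content and length, with no filter or at a mean of at least 50. Besides *Sall3*, the genes called higher were *Gata4*, an endoderm factor, and *Gli3*, a Hedgehog pathway factor, both at low counts. *Gata4* had counts of 2, 7 and 10 in *Ctrl* and of 21, 12 and 27 in *Tet iTKO* (limma, adjusted p = 0.03), and this call was lost without some libraries, with adjusted p from 0.014 to 0.15. *Gli3* had adjusted p from 0.0032 to 0.11 across the same exclusions. *Pou5f1*, the gene for OCT4, had counts of 5208, 5804 and 5457 in *Ctrl* and of 4373, 4318 and 4775 in *Tet iTKO*, and fell to 0.818 of its *Ctrl* level. Its log2 difference of -0.29 was -0.08 after quantile normalization (limma, adjusted p = 0.20).

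To set the family beside comparable factors, 45 other developmental zinc finger genes were examined. Of these 21 were abundant enough to test, 7 rose, 2 fell and 12 were not called, with a median log2 difference of 0.27. The shares were 33.3% higher and 9.52% lower, against 16.4% and 18.4% of all genes, but after the correction for GC content and length 3 were higher and 4 lower. *Ikzf4* had counts of 8, 3 and 3 in *Ctrl* and of 29, 26 and 31 in *Tet iTKO*, a log2 difference of 2.50 (SE 0.55). *Wt1*, a factor of kidney and gonad development, went from a mean of 3.0 to 18.7, a log2 difference of 2.37 (SE 0.66). Both had *Ctrl* means under 10, so they passed the filter only through *Tet iTKO*. At a mean of at least 50, where fewer were tested, 4 of the list were higher and 0 lower. *Zeb1* and *Prdm1* fell by 1.36 and 1.31 on the log2 scale, and *Zeb1* lost its call without *Tet iTKO* replicate 3 (limma, adjusted p = 0.072).

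In the naive pluripotency circuit, which SALL4 helps to run, 2 of 16 genes rose and 6 fell (12.5% and 37.5%, against 16.4% and 18.4% of all genes), with a median of -0.08. *Klf4* and *Esrrb* rose 1.25-fold and 1.22-fold, but neither held after the correction for GC content and length, which left 0 of the list higher and 7 lower. The *Klf4* log2 difference of 0.32 became 0.11 (limma, adjusted p = 0.36) and the *Esrrb* difference of 0.29 became -0.04. *Nr0b1* and *Stat3* fell to 0.752 and 0.773 of their *Ctrl* levels. Of 18 genes linked to the primed state 14 were tested, 7 rose and 2 fell (50% and 14.3%, against 16.4% and 18.4% of all genes), with a median of 0.25. After the correction for GC content and length 3 were higher and 5 lower. The Wnt pathway factor *Lef1* had counts of 104, 131 and 122 in *Ctrl* and of 273, 273 and 295 in *Tet iTKO*, a log2 difference of 1.23 (SE 0.14), close in size to that of *Sall3*. *Otx2* rose 1.82-fold, with adjusted p from 0.019 to 0.19 when single libraries were left out, while *Sox11* fell to 0.393 of its *Ctrl* level and *Sox4* to 0.685, the latter with adjusted p from 0.012 to 0.25.

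**Figure D4:**
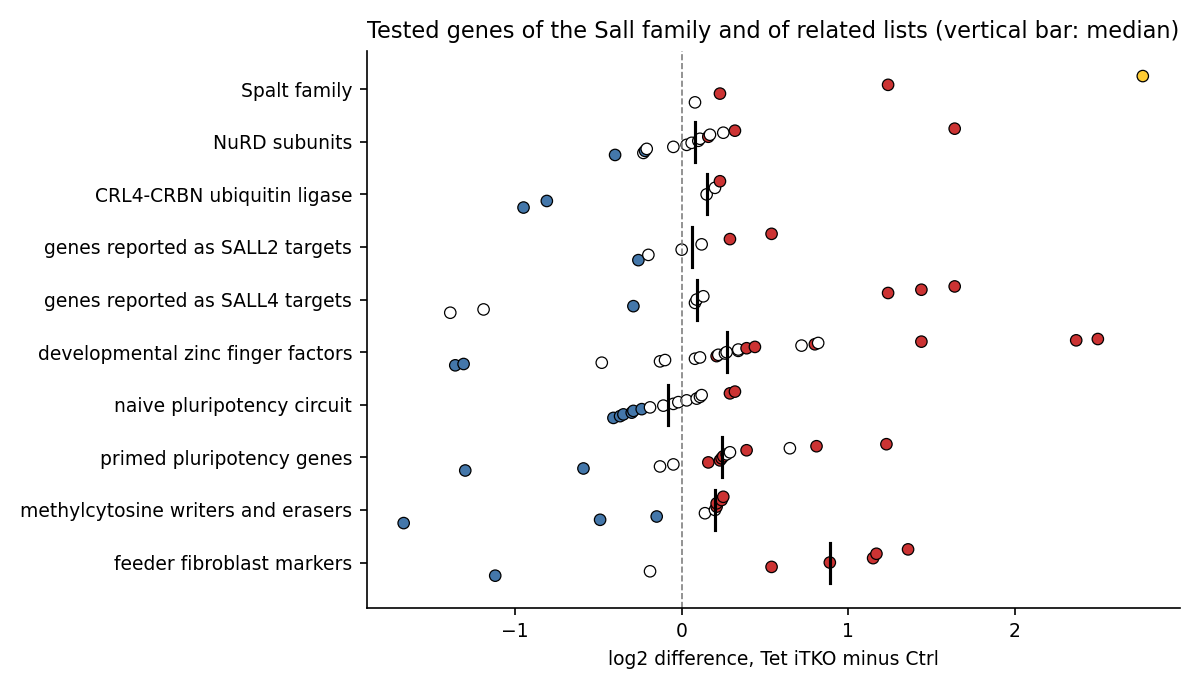
Log2 difference, *Tet iTKO* minus *Ctrl* (x axis), of each tested gene (points) in the *Sall* family and in 9 related gene lists (rows). Red points passed the test as higher and blue as lower, white points did not pass, the yellow point is *Sall2*, which was not tested, and vertical bars are medians, from -0.08 for the naive circuit to 0.89 for feeder markers.

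The targeted genes and the other enzymes of cytosine methylation are the setting in which the *Sall* values stand. *Tet3* had counts of 28, 13 and 13 in *Ctrl* and of 10, 3 and 3 in *Tet iTKO* (limma, adjusted p = 0.035), and with single libraries left out the adjusted p ranged from 0.019 to 0.18. *Tet1* had 696, 682 and 716 against 787, 895 and 753, and *Tet2* had 249, 170 and 230 against 233, 268 and 211. A value summed over a whole gene does not show the loss of a floxed exon, so the levels of *Tet1*, *Tet2* and *Tet3* do not check the deletion. Of the 9 writers and erasers of methylcytosine 4 were higher and 3 lower (77.8% called, against 34.8% of all genes), with a median of 0.20. The higher genes included *Tet1* and the lower ones *Tet3*, both targeted by the design, so this share is not one of untouched genes alone. After the correction for GC content and length 0 were higher and 5 lower. The de novo methyltransferase genes *Dnmt3a* and *Dnmt3b* rose 1.19-fold and 1.18-fold, and under that correction these log2 differences of 0.25 and 0.24 were -0.32 and -0.01. Their cofactor *Dnmt3l* fell to 0.71 of its *Ctrl* level.

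Markers of other cells that the cultures could hold moved with the groups as well. Of 12 feeder fibroblast markers 7 were tested, 5 rose and 1 fell (85.7% called, against 34.8% of all genes), with a median of 0.89. After the correction for GC content and length 2 were higher, and at a mean of at least 50, where fewer were tested, 3. *Col1a2* and *Col3a1* rose 2.25-fold and 2.60-fold and *Vim* fell to 0.461 of its *Ctrl* level. *Thy1*, the gene for the Thy1.2 of the sort gate, was not called, with a log2 difference of -0.19 (SE 0.32, limma, adjusted p = 0.69). The summed feeder markers were 2712 to 2825 in *Ctrl* and 3041 to 3113 in *Tet iTKO*. *Fn1* and *Vim* made up most of these sums, with means of 1405 and 1058 in *Ctrl* and of 2044 and 487 in *Tet iTKO*. *Postn*, *Twist1*, *Lum* and *S100a4* stayed under 10 counts in every library. Of 9 primitive endoderm markers 2 were tested and 1 was higher (50% called, against 34.8% of all genes). The 9 markers summed to 25 to 37 in *Ctrl* and 50 to 61 in *Tet iTKO*. The call was that of *Gata4*, which passed the filter only through *Tet iTKO*. It was lost after the correction for GC content and length, and under quantile normalization 0 were higher and 1 lower. *Amn*, below the filter, had means of 1.67 in *Ctrl* and 17.7 in *Tet iTKO*, while *Sox7*, not called, had 16.0 and 6.67. Of 7 mesoderm markers 2 were tested and 1 was higher (50% called, against 34.8% of all genes). The 7 markers summed to 19 to 42 in *Ctrl* and 72 to 78 in *Tet iTKO*, with *Mesp1* at 0 throughout. *T*, the Brachyury gene, accounted for the mesoderm call. Its means were 4.33 in *Ctrl* and 24.7 in *Tet iTKO*, so it passed the filter only through *Tet iTKO*.

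For the neural lineage, in which *Sall2* and *Sall3* are known to be expressed, 2 of 11 listed markers were tested and 0 were called, against 34.8% of all genes. These markers summed to 644 to 746 in *Ctrl* and to 687 to 761 in *Tet iTKO*, mostly from *Tubb3*, and *Pax7* and *Dcx* were at 0 in all libraries. *Pax6*, below the filter, had counts of 4, 2 and 1 in *Ctrl* and of 14, 11 and 11 in *Tet iTKO*. Of 4 trophoblast markers tested the keratin genes *Krt8* and *Krt18* rose 6.18-fold and 5.26-fold and *Tfap2c* fell (75% called, against 34.8% of all genes). The 8 listed markers summed to 720 to 823 in *Ctrl* and 773 to 799 in *Tet iTKO*. Markers that define embryonic stem cells summed to 19980 to 20558 in *Ctrl* and 16093 to 17025 in *Tet iTKO*. *Dppa5a* made up the largest part, with means of 11230 and 8573, and *Fut4* stayed under 10 counts in every library. Of the 6 tested 1 rose and 4 fell (16.7% and 66.7%, against 16.4% and 18.4% of all genes). *Epcam*, the gene for the CD326 used in the sort, rose 1.37-fold. Among those that fell were *Dppa5a*, to 0.764, and *Zfp42*, to 0.79 of *Ctrl*. After the correction for GC content and length 2 of the 6 were higher and 1 lower, with *Dppa5a* at a log2 difference of 0.15 (limma, adjusted p = 0.0015) and *Zfp42* at -0.15 (limma, adjusted p = 0.27). *Zfp42* also lost its call without *Tet iTKO* replicate 2 (limma, adjusted p = 0.11). The part of these cell type differences in the values of *Sall2*, *Sall3* and *Sall4* was not tested.

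The genes around the *Sall* loci were examined up to 200 kb from each start. Of 42 annotated neighbours 15 were listed and 9 were tested, and 1 was called, where 34.8% of all genes tested were called. It was *Supt16*, a histone chaperone gene 131.3 kb from the *Sall2* start, with counts of 536, 485 and 471 in *Ctrl* and of 662, 627 and 544 in *Tet iTKO*, a log2 difference of 0.29 (SE 0.09, limma, adjusted p = 0.0074). That p reached 0.066 with 1 library left out. Nearer to *Sall2*, *Mettl3*, which encodes the RNA N6-adenosine methyltransferase, had a log2 difference of 0.25 (SE 0.13), *Tox4* one of -0.06 (SE 0.08), *Rab2b* one of -0.57 (SE 0.29) and *Chd8* one of -0.12 (SE 0.11), and none of these 4 passed. On the far side of *Sall2* 5 olfactory receptor genes were at 0 in all libraries. Of the neighbours of *Sall3*, *Atp9b* was tested with a log2 difference of 0.09 (SE 0.21), and for *Sall4* those of *Atp9a*, *Zfp64* and *Nfatc2* were 0.12, 0.14 and -0.18 with none called. For *Sall1* the 1 listed neighbour was at 0.

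The genes whose profiles over the 6 libraries were nearest to each member were found by the root mean square distance between log2 values centred on their mean. This is a description, since the nearest of 10524 genes are close by construction. For *Sall2* the nearest was *Col4a2*, a basement membrane collagen chain, at a distance of 0.196, with counts of 4, 10 and 8 in *Ctrl* and of 44, 41 and 43 in *Tet iTKO*. It was followed by *Celsr2*, a planar polarity cadherin, at 0.241, *Clgn*, a chaperone of the endoplasmic reticulum, at 0.272, *Dpysl4* at 0.307 and *Jcad* at 0.311. All 5 were at lower counts than *Sall2*, with *Ctrl* means under 10, so they passed the filter only through *Tet iTKO*.

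For *Sall3* the nearest were *Aif1l* at 0.085, *Mark4*, a microtubule-affinity regulating kinase, at 0.088 and *Tmem121* at 0.133. *Mark4* had counts of 48, 75 and 84 in *Ctrl* and of 147, 135 and 149 in *Tet iTKO*, with replicate 1 again the lowest *Ctrl* library. For *Sall4* they were *Scamp5* at 0.023, *Wdr33*, a subunit of the mRNA cleavage and polyadenylation machinery, at 0.03 and the glucose transporter gene *Slc2a1* at 0.033. For *Sall1* they were *Nemf*, of ribosome quality control, at 0.023, *Anapc1*, a subunit of the anaphase-promoting complex, at 0.029 and *Tbc1d23* at 0.037, each with *Tet iTKO* replicate 1 as its highest library.

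The 6 libraries had sums of normalized counts from 3964824 to 4219665 and from 13431 to 14363 genes above 0, with the *Tet iTKO* libraries at the lower sums and the higher gene numbers. The raw depth before scaling is unknown. Squared differences between replicates of a group were on average 2.59 to 3.46 times what counting noise would give if the scaled values were raw counts. None thus looked like 1 library deposited again.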

How the data were processed

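Per the labels and the study's methods, poly(A) RNA of sorted mESC was made into Smart-Seq2 libraries without molecular identifiers or strand marks and sequenced as 50-base pairs. Unique STAR alignments were counted per gene with HTSeq 0.7.1 in its strand-specific setting (-s yes). In libraries without strand marks this counts only the pairs that happen to lie in the expected orientation, so the values rest on part of the reads. The submitters' processing notes name mm9. The deposited values are a score: counts that the authors divided by DESeq2 1.26.0 size factors (R 3.5.2) and rounded to whole numbers, so raw depth is unknown and a count model was not used.

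Identifiers were mapped to symbols with GENCODE M21 (20775 of 22380 matched). Exon lengths, GC content, gene positions (GRCm38) and distances come from the same annotation and promoters from RefSeq. Genes with a mean of at least 10 were tested on log2(value + 1) with limma 3.58.1 in R 4.3.3, with a mean-variance trend and Benjamini-Hochberg adjustment over 10524 genes. A log2 difference on this scale understates the change of low genes. The *Sall1* to *Sall4* ratio was compared by an exact permutation test. The scripts were tested on simulated data.

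The members and gene lists were chosen with earlier results of these data known. Named genes were the members, the *Tet* genes, up to 2 risen and 2 fallen genes of largest change per list, called neighbours within 200 kb, and the 5 (for *Sall2*) or 3 nearest profiles. Others (*Pax6*, *Tubb3*, *Ccne1*, *Myc*, *Ccnd1*, *Cdkn2a*, *Thy1*, *Fn1*, *Sox7*, *Amn*, markers near 0 and neighbours not called) were added after their values were seen. Alternatives were other pseudocounts, filters, scalings, a correction for GC content and length, the variance prior, a replicate block and the omission of each library. Protein sequences were not analysed here.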

Additional observations from a re-analysis of the deposited data

How the results depend on the processing

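*Sall2* and *Sall3* kept their direction under every alternative, and *Sall3* its call. The correction for GC content and length turned the differences of *Sall1* to -0.18 and of *Sall4* to -0.11, and those of *Chd4* (-0.08), *Ddb1* (0.0), *Dnmt3a* (-0.32), *Dnmt3b* (-0.01), *Dppa5a* (0.15), *Esrrb* (-0.04), *Tet1* (-0.08) and *Tet2* (-0.14). The same correction with a fit that gives less weight to outlying genes, chosen after seeing the data, gave -0.11 for *Sall1*, -0.01 for *Sall4*, -0.17 for *Dnmt3a*, 0.15 for *Dppa5a*, -0.02 for *Tet1* and -0.06 for *Tet2*, with 1315 genes higher and 1468 lower. The cause was not tested.

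Without the variance trend *Sall4* stayed at 0.23 but lost its call (limma, adjusted p = 0.13), the calls in the fixed lists went from 54 to 25, the genes called higher from 1731 to 1075 and those lower from 1934 to 1217. Under the planned GC and length correction 1018 genes were higher. At a mean of at least 50, which tests fewer genes, those past a log2 difference of 1 went from 521 to 129 higher and from 137 to 56 lower, and quantile normalization gave 253 lower. Neighbours called went from 1 to 3 under quantile normalization, to 3 under both GC and length corrections and to 0 without the trend.

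With 1 library left out in turn, the difference ranged from -0.04 to 0.16 for *Sall1* (-0.04 without *Tet iTKO* replicate 1), 2.52 to 3.02 for *Sall2*, 0.98 to 1.40 for *Sall3* and 0.17 to 0.27 for *Sall4*, and that of the log2 *Sall1* to *Sall4* ratio from -0.24 to -0.10. The genes higher ranged from 1335 to 1635 and those lower from 1642 to 1722, those past a log2 difference of 1 from 420 to 546 and from 116 to 138, the list calls from 44 to 49, and the neighbours called stayed at 1. *Tet2* ranged from -0.02 (without *Ctrl* replicate 2) to 0.26. For the 41 other called genes that were not added after their values were seen, 568 values under the alternatives kept direction and call, 66 lost the call and 10 reversed. Of the list counts, 309 equalled the reported count and 139 differed, 75 of them by more than 1.5 times.

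Replicate numbers do not pair these libraries: same-numbered libraries had correlations of deviations of 0.001, -0.005 and -0.003. With the replicate block the *Sall* differences were 0.08, 2.77, 1.24 and 0.23 in the order *Sall1* to *Sall4*, no member's call changed, and 1762 genes were higher and 1980 lower. With 3 libraries a group, a difference such as that of *Sall1* was not detectable at its spread. p-values measure the spread between these lines.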
